A study of Oncorhynchus mykiss with 9 samples.

Results

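LEAP-2 (liver-expressed antimicrobial peptide 2), hepcidin and cathelicidin genes were examined in rainbow trout (Oncorhynchus mykiss), a fish of the salmonid family. Members were taken by gene symbol or by product name, which found 8 of the 42127 genes of the deposited table: 3 LEAP-2 genes, 3 hepcidin genes and 2 cathelicidin genes. The study measured total RNA from wild-type liver by RNA sequencing in 3 groups of 3 libraries, labelled control, moderate hypoxia and acute hypoxia. The series' design gives 12 h of hypoxia. Its wording does not make plain that this holds for moderate as well as acute, but the sample titles of both groups carry the number 12. The oxygen levels, the age of the fish and what separates moderate from acute are not given, and reoxygenated fish were not analysed here. It is not stated whether the 3 libraries of a group are 3 fish or repeat preparations, so the p-values below may measure only technical spread. The members were chosen by name, but selected on FPKM already seen in all 3 groups, so their values are a description without a test.

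LEAP-2 and hepcidin are small cysteine-rich peptides that the liver makes and secretes into blood. Hepcidin binds ferroportin, the iron exporter of cells, and so lowers plasma iron; in mammals its gene is driven by bone morphogenetic protein (BMP) signalling through SMAD factors and by interleukin 6 through STAT3, and is held down when erythropoiesis is stimulated. LEAP-2 acts on microbes in vitro and, in mammals, also blocks the ghrelin receptor. Cathelicidins are antimicrobial peptides of granulocytes and epithelia, and those of salmonids respond to bacterial stimulation.

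Values are FPKM, fragment numbers divided by transcript length and library size, so levels of different genes can be set side by side per length. Read totals were not available, and depth, judged from the steps between low values, ran from 0.947 to 1.29 times that of the first control library. The 27 genes matched as hepatocyte markers, 26 of them above 1 FPKM, summed to 91890 to 107000 FPKM in the 9 libraries, so the defining markers of the labelled tissue were present. The gene below 1 FPKM was tissue factor, matched by its symbol tf. Of the 8 members, 4 averaged 1 FPKM or more across all libraries and were among the 13803 genes fitted: leap-2b, leap2 and a pair of hepcidin genes. In whole liver, fewer cells of a type and less RNA per cell cannot be told apart.

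The LEAP-2 gene leap-2b (ncbi_100136189) was the more abundant LEAP-2 gene in control liver and the less abundant in acute hypoxia. It stood at 25.2, 27.8 and 21.0 FPKM in the 3 control libraries, at 14.6, 16.2 and 13.8 in moderate hypoxia and at 3.44, 2.06 and 4.49 in acute hypoxia. Every moderate library lay below every control library, and every acute library below every moderate one. The group means were 24.7 ± 3.43, 14.9 ± 1.22 and 3.33 ± 1.22 FPKM (SD, n = 3 each). The control mean was 7.40 times the acute mean and 1.66 times the moderate mean, and the moderate mean was 4.47 times the acute one.

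The gene leap2 (ncbi_100136188), for which RefSeq lists the synonym leap-2a, had the opposite order. Its level was 4.81, 4.11 and 4.93 FPKM in control, 7.59, 9.08 and 8.39 in moderate hypoxia, and 8.94, 11.2 and 10.4 in acute hypoxia. Both hypoxia groups lay wholly above control, whereas the lowest acute library fell among the moderate ones, so these 2 groups overlapped. The means were 4.62 ± 0.443, 8.35 ± 0.750 and 10.2 ± 1.14 FPKM (SD, n = 3), 1.81 times control in moderate and 2.201 times control in acute hypoxia. From the most abundant gene down, leap-2b ranked 1153 to 1308 among the genes above 0 in the control libraries and 4278 to 8128 in the acute ones, while leap2 went from 3995 to 5019 to 2030 to 2417.

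**Figure D1:**
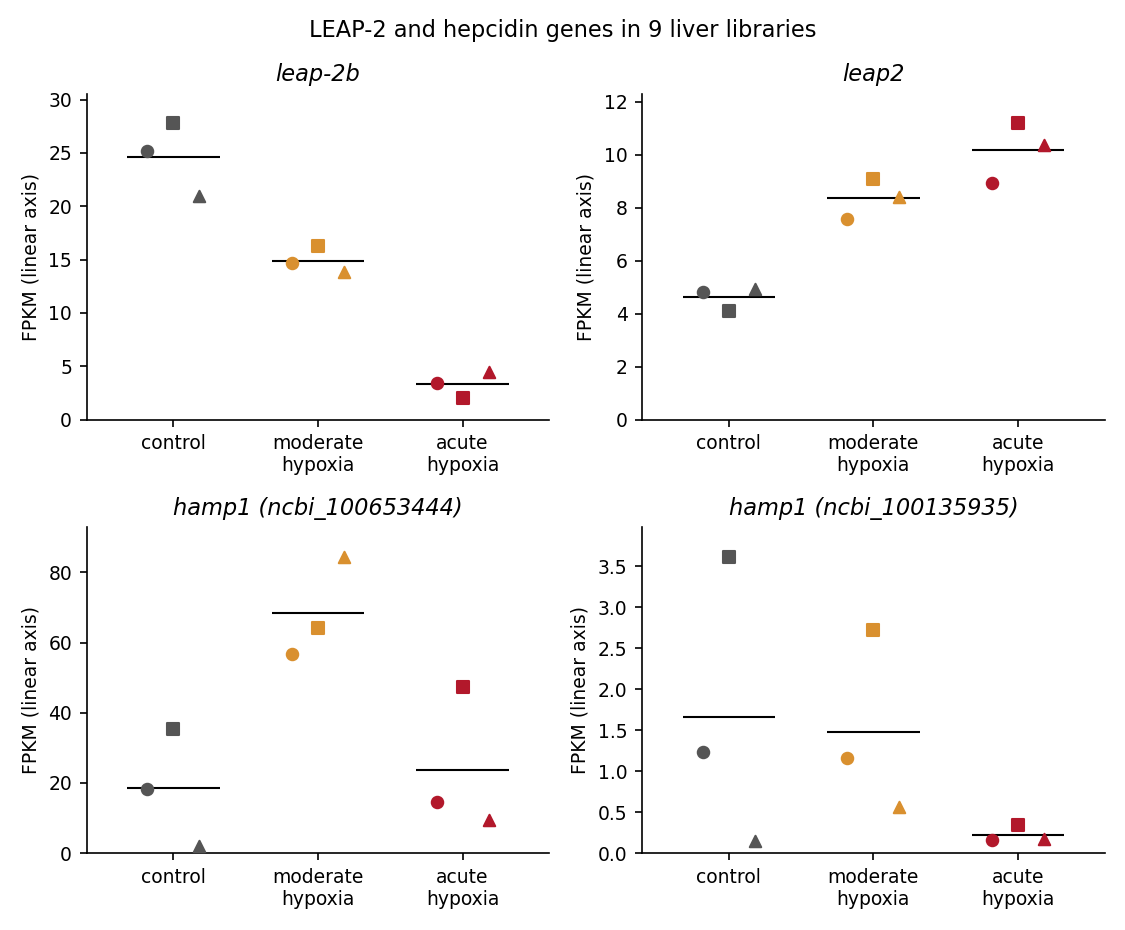
FPKM of leap-2b, leap2 and a pair of hepcidin genes (hamp1) in each of the 9 libraries, on linear axes that start at 0. Circles, squares and triangles are replicates 1, 2 and 3 of a group and horizontal lines are group means; leap-2b steps down from 24.7 to 14.9 to 3.33 FPKM while leap2 goes from 4.62 to 10.2, and the abundant hepcidin gene (ncbi_100653444) peaks in moderate hypoxia at 68.5 FPKM.

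Within a library the share of leap-2b in the summed FPKM of the pair is free of any scaling between libraries. That share was 84.0%, 87.1% and 81.0% in control, 65.9%, 64.1% and 62.2% in moderate hypoxia, and 27.8%, 15.5% and 30.2% in acute hypoxia. The 3 groups did not overlap, and the means were 84.0% ± 3.07, 64.1% ± 1.82 and 24.5% ± 7.89 (SD, n = 3). The major LEAP-2 transcript was thus leap-2b in all 6 control and moderate libraries and leap2 in all 3 acute ones. The sum of both genes was 29.3 ± 3.06 FPKM in control, 23.3 ± 1.79 in moderate and 13.5 ± 1.26 in acute hypoxia, so that the higher leap2 did not make up for the lower leap-2b. How the counting assigned reads shared by close copies is not stated, and levels of single copies are uncertain to that extent. The remaining LEAP-2 gene (ncbi_101268972) was listed at 0 in 6 libraries and at 0.066 FPKM in moderate library 3, 0.12 in acute library 1 and 0.059 in acute library 2.

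**Figure D2:**
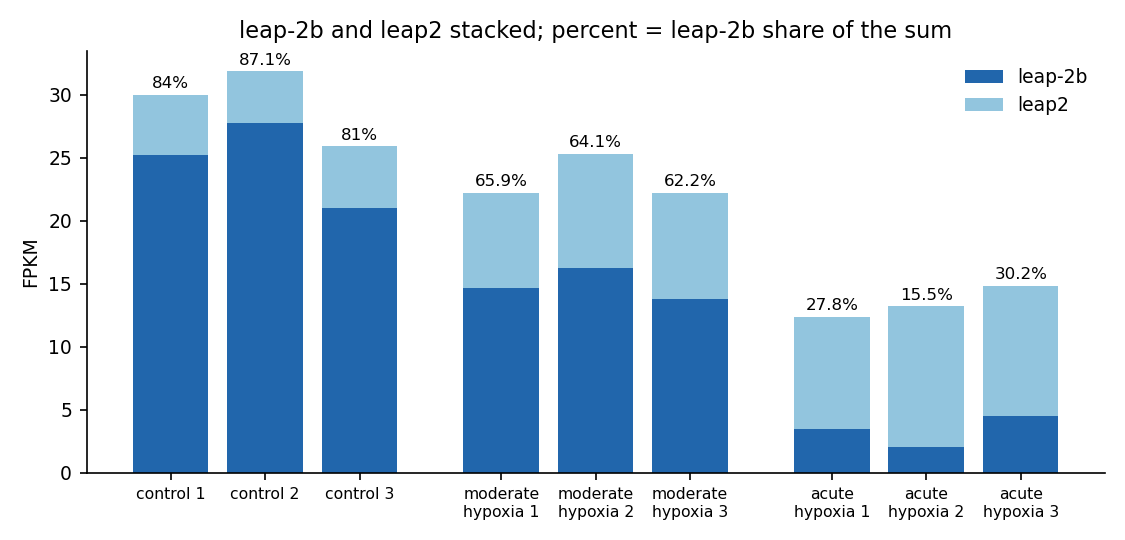
Stacked FPKM of leap-2b (dark) and leap2 (light) in each library, on a linear axis from 0, with the percent of the sum that leap-2b holds printed above each bar. The share lies between 81.0% and 87.1% in control, between 62.2% and 65.9% in moderate hypoxia and between 15.5% and 30.2% in acute hypoxia.

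On the scale of log2(FPKM + 0.5), which understates the change of low genes, leap-2b differed by -2.76 ± 0.21 (SE) between acute hypoxia and control, the 3rd lowest difference of the 13803 genes. The difference of leap2 was 1.06 ± 0.12, the 84th highest. In acute hypoxia against control 2 of the 4 fitted members, leap-2b and leap2, had groups that did not overlap, as did 28.3% of all fitted genes. In moderate hypoxia against control 3 of 4 did so (leap-2b, leap2 and the abundant hepcidin gene), beside 45.0% of all genes, and in acute against moderate hypoxia 3 of 4 (leap-2b and both hepcidin genes), beside 45.6%. The less abundant of these hepcidin genes (ncbi_100135935) passed the filter, at a mean of 1.12 FPKM, only through its control and moderate values. Its acute mean was 0.226 FPKM, so its place in the last count carries no weight. The median of all fitted genes lay 0.15 above control in moderate hypoxia, and at -0.21 in acute against moderate hypoxia, so differences in these comparisons are given relative to it. Relative to that median, leap-2b differed by -0.86 in moderate hypoxia against control and by -1.85 in acute against moderate hypoxia, and leap2 by 0.64 and 0.47. In the authors' deposited table the log2 fold changes of leap-2b were -0.73 for moderate hypoxia against control and -2.89 for acute hypoxia against control. In the authors' deposited table those of leap2 were 0.85 and 1.14. All these comparisons share libraries, since each group enters 2 of them.

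**Figure D3:**
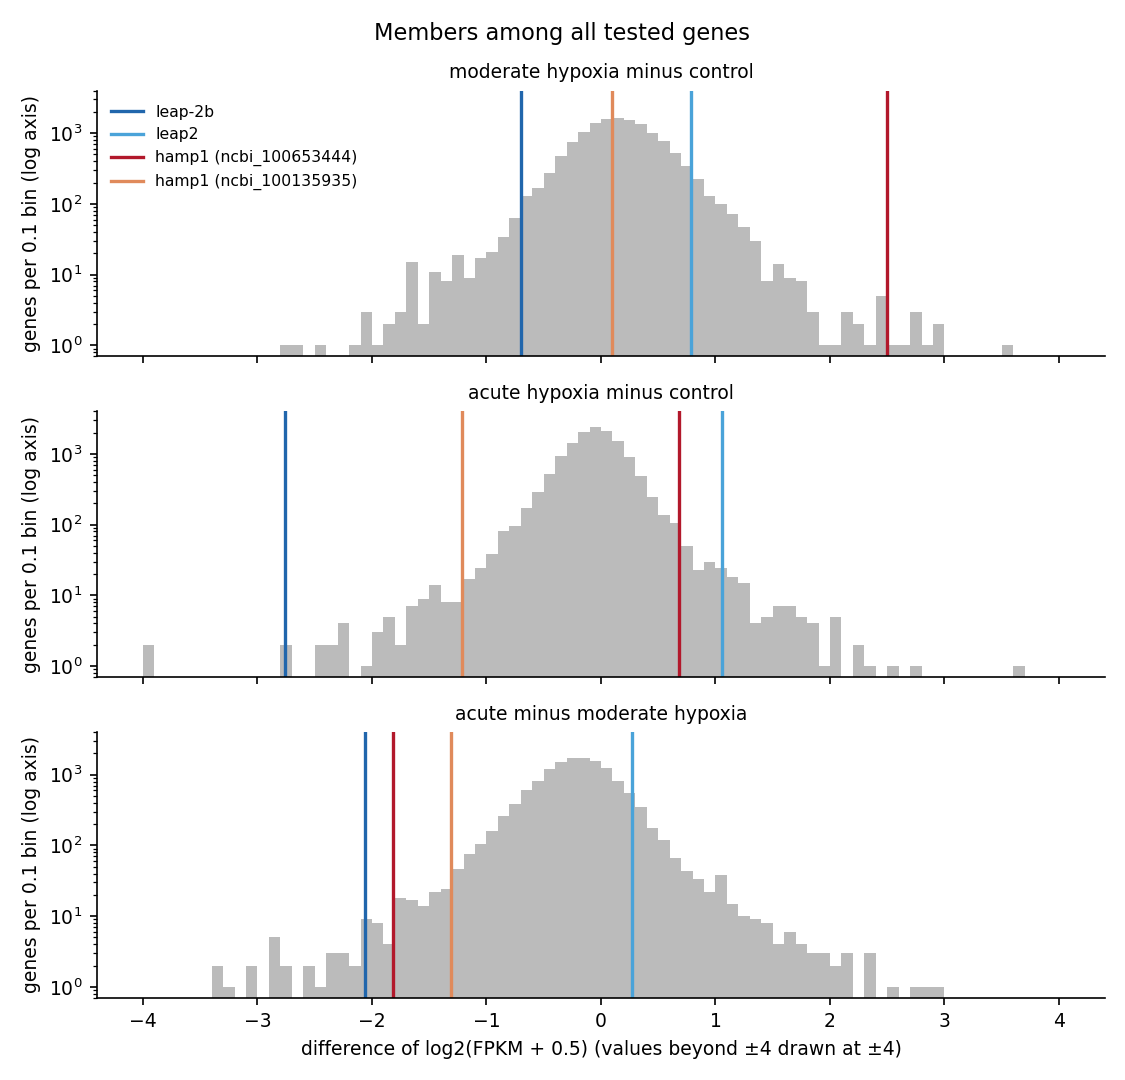
Histograms of the difference in log2(FPKM + 0.5) over all 13803 fitted genes in bins of 0.1 (grey, counts on a log axis), for moderate hypoxia minus control, acute hypoxia minus control and acute minus moderate hypoxia, with the 4 fitted members as vertical lines. The line of leap-2b stands in the left tail of the acute comparison with control at -2.76, and that of the abundant hepcidin gene in the right tail of the moderate comparison at 2.50.

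Of the 3 hepcidin genes, all labelled hamp1, ncbi_100653444 held most of the signal, with 92.6% ± 1.58 of their summed FPKM in control, 97.8% ± 1.72 in moderate and 98.8% ± 0.540 in acute hypoxia (SD, n = 3). Its level was 18.2, 35.5 and 2.06 FPKM in the control libraries, 56.8, 64.1 and 84.5 in moderate hypoxia and 14.6, 47.2 and 9.35 in acute hypoxia. All moderate libraries lay above all control and all acute libraries, and control and acute overlapped. The control libraries differed by 17.3 times between the lowest and the highest, against 1.32 times for leap-2b.

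The mean of this gene was 18.6 ± 16.7 FPKM in control, 68.5 ± 14.3 in moderate hypoxia and 23.7 ± 20.5 in acute hypoxia (SD, n = 3), and the moderate mean was 3.68 times the control mean. Relative to the median of all genes the log2 difference between moderate hypoxia and control was 2.35 (2.50 ± 0.82 SE before the median was taken off, the 9th highest of 13803), and that between acute and moderate hypoxia was -1.62. Its size rested on control library 3: the unshifted difference of moderate hypoxia from control was 1.39 without that library and 3.30 without control library 2. For acute hypoxia against control the difference was 0.68 ± 0.82, and it was -0.43 without control library 3 and 0.03 without acute library 2, so that no direction can be given.

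The second hepcidin gene, ncbi_100135935, was low, at 1.23, 3.62 and 0.149 FPKM in control, 1.16, 2.73 and 0.564 in moderate hypoxia and 0.159, 0.348 and 0.170 in acute hypoxia. The acute libraries lay below all moderate ones, and the lowest control library was lower than any acute library. Its means were 1.67 ± 1.77, 1.48 ± 1.12 and 0.226 ± 0.106 FPKM (SD, n = 3). The log2 difference of acute hypoxia from control was -1.21 ± 0.56 (SE), and -0.56 without control library 2 and -1.89 without control library 3. That of moderate hypoxia from control was 0.10 on the log2(FPKM + 0.5) scale with no rescaling, and changed sign to -0.02 under median-of-ratios scaling and -0.01 under quantile normalization. In the authors' deposited table the log2 fold change of moderate hypoxia from control was -0.17. Control library 2 was the highest and control library 3 the lowest of the control group for both hepcidin genes. The third hepcidin gene, ncbi_110505210, was listed at 0 in all 9 libraries. In the RefSeq annotation of assembly USDA_OmykA_1.1 it is the direct neighbour of ncbi_100135935, with 0 genes between them. The sequences of these copies were not compared, so whether reads could have been assigned to either copy was not tested.

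Both cathelicidin genes were low and irregular. The gene ncbi_100136187, listed in RefSeq under the synonym CATH-2B, was at 0, 1.12 and 2.89 FPKM in control, 0.051, 0 and 0 in moderate hypoxia and 2.08, 1.28 and 0.088 in acute hypoxia. The moderate libraries were all near 0, while control and acute each held libraries near 0 and above 1. Cathelicidin 1 (ncbi_100136204) ranged from 0 to 0.332 FPKM, with 0 in control library 1 and moderate library 3. Neither passed the filter on low values, and with no read counts a listed 0 is not a measured absence.

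Serum amyloid A (saa, ncbi_100136145), an acute phase protein of the liver, had nearly the pattern of CATH-2B. It was listed at 0, 1.56 and 3.82 FPKM in control, 0, 0 and 0.077 in moderate hypoxia and 3.38, 3.98 and 0.241 in acute hypoxia. Libraries high in CATH-2B were high in saa, with Pearson's r = 0.97 of log2(FPKM + 0.5) over the 9 libraries; the pair was chosen after its values were seen, and most of its points are near 0. The abundant hepcidin gene did not share this pattern (r = -0.57 with CATH-2B), and it was highest in the moderate libraries, where both were near 0. Summed FPKM of the 14 granulocyte markers, 6 of them above 1 FPKM, ran from 12.7 to 20.7 in control, 13.2 to 42.0 in moderate and 15.3 to 21.6 in acute hypoxia. The 42.0 was moderate library 1, where a single myeloperoxidase gene (ncbi_110532736) stood at 18.6 FPKM. That gene was at 2.58 and 2.50 FPKM in moderate libraries 2 and 3. The part of granulocytes in the cathelicidin levels was not tested.

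**Figure D4:**
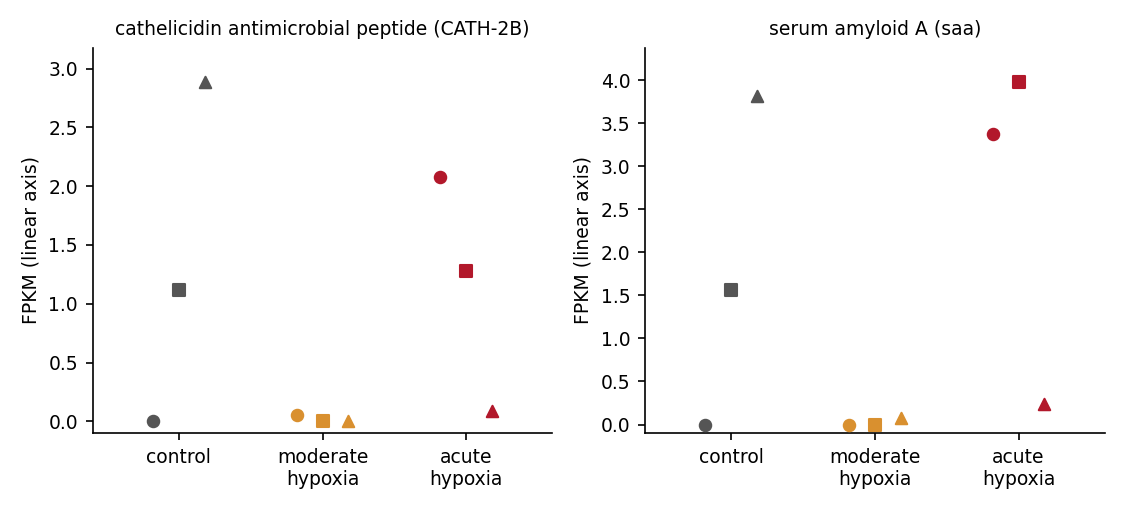
FPKM of CATH-2B (left) and saa (right) in each library on linear axes, with circles, squares and triangles for replicates 1, 2 and 3; no means are drawn. All 3 moderate libraries lie at or below 0.077 FPKM for both genes, while control and acute libraries reach 2.89 and 3.98 FPKM.

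Receptor and SMAD genes were among the genes of the BMP-SMAD route to hepcidin that were higher in moderate hypoxia than in control. Part of these calls depended on the scaling. Of 32 tested genes of this route, 13 rose and 0 fell in moderate hypoxia against control (limma on all genes, Benjamini-Hochberg adjusted p under 0.05), where 24.3% of all fitted genes rose and 5.02% fell. With median-of-ratios scaling the counts were 6 and 0, where 1838 of all 13803 fitted genes rose and 1725 fell. With that scaling 585 of all genes rose and 552 fell in acute hypoxia against control, and 1629 rose and 1642 fell from moderate to acute hypoxia. The counts with this scaling, here and for the lists below, belong beside these numbers and not beside the shares without rescaling. The median log2 difference of the list was 0.36, beside 0.15 over all genes. In acute hypoxia 2 rose and 0 fell against control, where 7.79% of all genes passed the test (3.08% higher and 4.71% lower), and 0 rose and 12 fell against moderate hypoxia, where 32.4% did; with median-of-ratios scaling the latter became 3 and 3. Leaving out 1 library at a time gave 8 to 13 calls in moderate hypoxia against control, with 8 without control library 1. It gave 5 to 9 from moderate to acute hypoxia, with 7 and 6 without moderate library 1 or 3 and 5 without acute library 3. In acute hypoxia against control it gave 1 call without any 1 control library or without acute library 1 or 2. The 13 that rose in moderate hypoxia and the 12 that fell from there to acute hypoxia include bmp6. That gene was fitted only through its moderate values.

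The type II BMP receptor gene bmpr2b (ncbi_110511378) had the smallest p of the list. It was at 45.2, 43.1 and 41.2 FPKM in control, 135, 89.8 and 114 in moderate hypoxia and 41.9, 38.8 and 42.9 in acute hypoxia. The moderate libraries were all above the others, and control and acute overlapped. Relative to the median of all genes it rose by 1.21 on the log2 scale in moderate hypoxia (limma adjusted p = 0.00013) and fell by 1.22 from moderate to acute hypoxia (limma adjusted p = 0.000108). Smad4 (ncbi_101268920), the common partner of the BMP-activated SMADs, rose by 0.53 relative to the median in moderate hypoxia (limma adjusted p = 0.002), from 2.64 ± 0.167 to 4.56 ± 0.644 FPKM (SD, n = 3). These calls held under the alternatives run, 15 for bmpr2b and 14 for Smad4.

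Other parts of the route were less firm or did not pass. The rises of Bmpr2 (MSTRG.29415 and ncbi_110524928), Smad6 (ncbi_118936600) and smad6b (ncbi_110510499) in moderate hypoxia against control were lost under median-of-ratios scaling. There the limma adjusted p was 0.0589, 0.0589, 0.0639 and 0.0587, in that order. Quantile normalization also ended these calls (limma adjusted p from 0.0786 to 0.111). Without control library 1 the calls of Smad6 and smad6b were lost too. That of Smad6 was also lost without the filter and without moderate library 1 or 3. That of smad6b was also lost without control library 3 or moderate library 2. The ligand gene bmp6 (ncbi_110489762) was at 0.884 ± 0.148 FPKM in control, 1.53 ± 0.144 in moderate and 0.883 ± 0.266 in acute hypoxia (SD, n = 3). Its control and acute means were under the filter of 1 FPKM, so it was fitted only through its moderate values. The call of a rise in moderate hypoxia (limma adjusted p = 0.0233) therefore carries little weight. It was lost under 7 of 14 alternatives (limma adjusted p from 0.0579 to 0.147). Among them were the fit without the filter (limma adjusted p = 0.0841) and those without control library 1 or 2 or moderate library 2 or 3. A copy of the target gene id1 (ncbi_100136776) rose from 2.54 to 3.52 FPKM with a limma adjusted p of 0.035, lost under 9 of 14 (0.0581 to 0.234), among them without any 1 control library and without moderate library 1 or 3. Levels of another gene annotated as ID-1 (ncbi_110532286) are not given here. Its r with the abundant hepcidin gene over the 9 libraries was 0.67, for a pair chosen after its values were seen. Hemojuvelin (hjv, ncbi_110486163), the BMP co-receptor that hepcidin needs in mammals, was at 2.22 ± 0.333, 2.92 ± 0.347 and 1.72 ± 0.0766 FPKM. It did not pass against control in either hypoxia group (limma adjusted p = 0.065 and 0.195) and was lower in acute than in moderate hypoxia (limma adjusted p = 0.00398), a call lost under quantile normalization. Transferrin receptor 2 (tfr2), an iron sensor of hepatocytes, did not pass in any comparison, with limma adjusted p between 0.0771 and 0.392.

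Tmprss6 (ncbi_110494898), whose protease cleaves hemojuvelin in mammals, was at 52.5 ± 1.72 FPKM in control, 66.6 ± 5.52 in moderate and 69.2 ± 6.95 in acute hypoxia. Its limma adjusted p was 0.0264 and 0.0362 against control, and these calls were lost under 6 of 15 and 9 of 16 alternatives. Without control library 1 these limma adjusted p were 0.0849 and 0.13, and without control library 2 0.0645 and 0.0983; the call in moderate hypoxia was also lost without moderate library 1 or 2, and that in acute hypoxia without control library 3 or acute library 1 or 2. Furin (ncbi_110526458), a protease that processes pro-hepcidin, was at 46.8 FPKM in control and rose to 64.1 and 68.0 with moderate and acute hypoxia, by 0.30 relative to the median and by 0.54 on the log2 scale (limma adjusted p = 0.00254 and 0.00283). Erythroferrone (ncbi_110529963), a suppressor of hepcidin from erythroid cells in mammals, was between 0.017 and 0.371 FPKM and was not fitted. Marker genes of endothelium, which makes BMP6 in mouse liver, summed over 23 genes, 13 of them above 1 FPKM, to 29.2 to 30.7 FPKM in control, 35.3 to 39.6 in moderate and 29.0 to 31.2 in acute hypoxia. Marker genes of stellate cells and fibroblasts summed over 29 genes, 14 of them above 1 FPKM, to 82.2 to 102 FPKM in control, 117 to 154 in moderate and 97.2 to 146 in acute hypoxia. The part of these cells and of endothelial cells in the BMP-SMAD values was not tested.

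The interleukin 6 route to hepcidin had 9 of 23 tested genes higher and 0 lower in moderate hypoxia against control (6 and 0 with median-of-ratios scaling), a share of 39.1% beside 29.3% of all genes. In acute hypoxia 3 were higher and 1 lower against control, 17.4% beside 7.79%, and all of these were C/EBP genes. Against moderate hypoxia 2 were higher and 10 lower (3 and 4 with median-of-ratios scaling), 52.2% beside 32.4%, and the calls fell from 12 to 6 without moderate library 1. Stat3 (ncbi_110538194), the factor that carries the signal to the hepcidin promoter in mammals, was at 20.6, 20.1 and 20.7 FPKM in control, 41.4, 38.5 and 35.7 in moderate hypoxia and 15.6, 26.4 and 24.1 in acute hypoxia. All moderate libraries were above all others. Relative to the median it rose by 0.74 (limma adjusted p = 0.00275) and fell by 0.62 from moderate to acute hypoxia (limma adjusted p = 0.00379). Socs3 (ncbi_110502743), a feedback inhibitor that STAT3 induces, rose from 1.95 to 3.66 FPKM in moderate hypoxia (0.62 relative to the median, limma adjusted p = 0.00206). The cytokine gene il6 (ncbi_100136689) was at 7.02 ± 0.957, 7.14 ± 0.468 and 7.26 ± 0.643 FPKM, with limma adjusted p between 0.837 and 0.906.

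Among the C/EBP factors, of which C/EBP alpha binds the hepcidin promoter in mammals, delta and alpha copies rose in acute hypoxia and a beta copy fell. The delta gene cebpd (ncbi_100379114) was at 6.21, 5.75 and 6.26 FPKM in control, 12.3, 12.5 and 16.1 in moderate hypoxia and 12.4, 24.1 and 22.5 in acute hypoxia. Both hypoxia groups lay above control. It rose by 1.56 ± 0.21 (SE) in acute hypoxia (limma adjusted p = 0.00128) and by 0.94 relative to the median in moderate hypoxia (limma adjusted p = 0.00367). CEBPA (ncbi_110507010) rose by 0.59 ± 0.10 (SE) in acute hypoxia, from 8.50 to 13.1 FPKM (limma adjusted p = 0.00469), while its other copy (ncbi_100379111) did not pass at 8.09 and 9.33 FPKM (limma adjusted p = 0.595). The beta gene cebpb (ncbi_100136165) fell by 0.39 on the log2 scale, from 38.0 to 28.7 FPKM (limma adjusted p = 0.0304, lost under 8 of 16 alternatives, among them without control library 1 or 2 or any 1 acute library). Another beta copy, CEBPB (ncbi_100379112), did not pass there. It was called higher in moderate hypoxia against control, a call lost under median-of-ratios scaling (limma adjusted p = 0.109) and without the filter (0.111). The call was also lost without control library 1 or 3 or moderate library 1 or 3 (limma adjusted p from 0.0603 to 0.102).

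**Figure D5:**
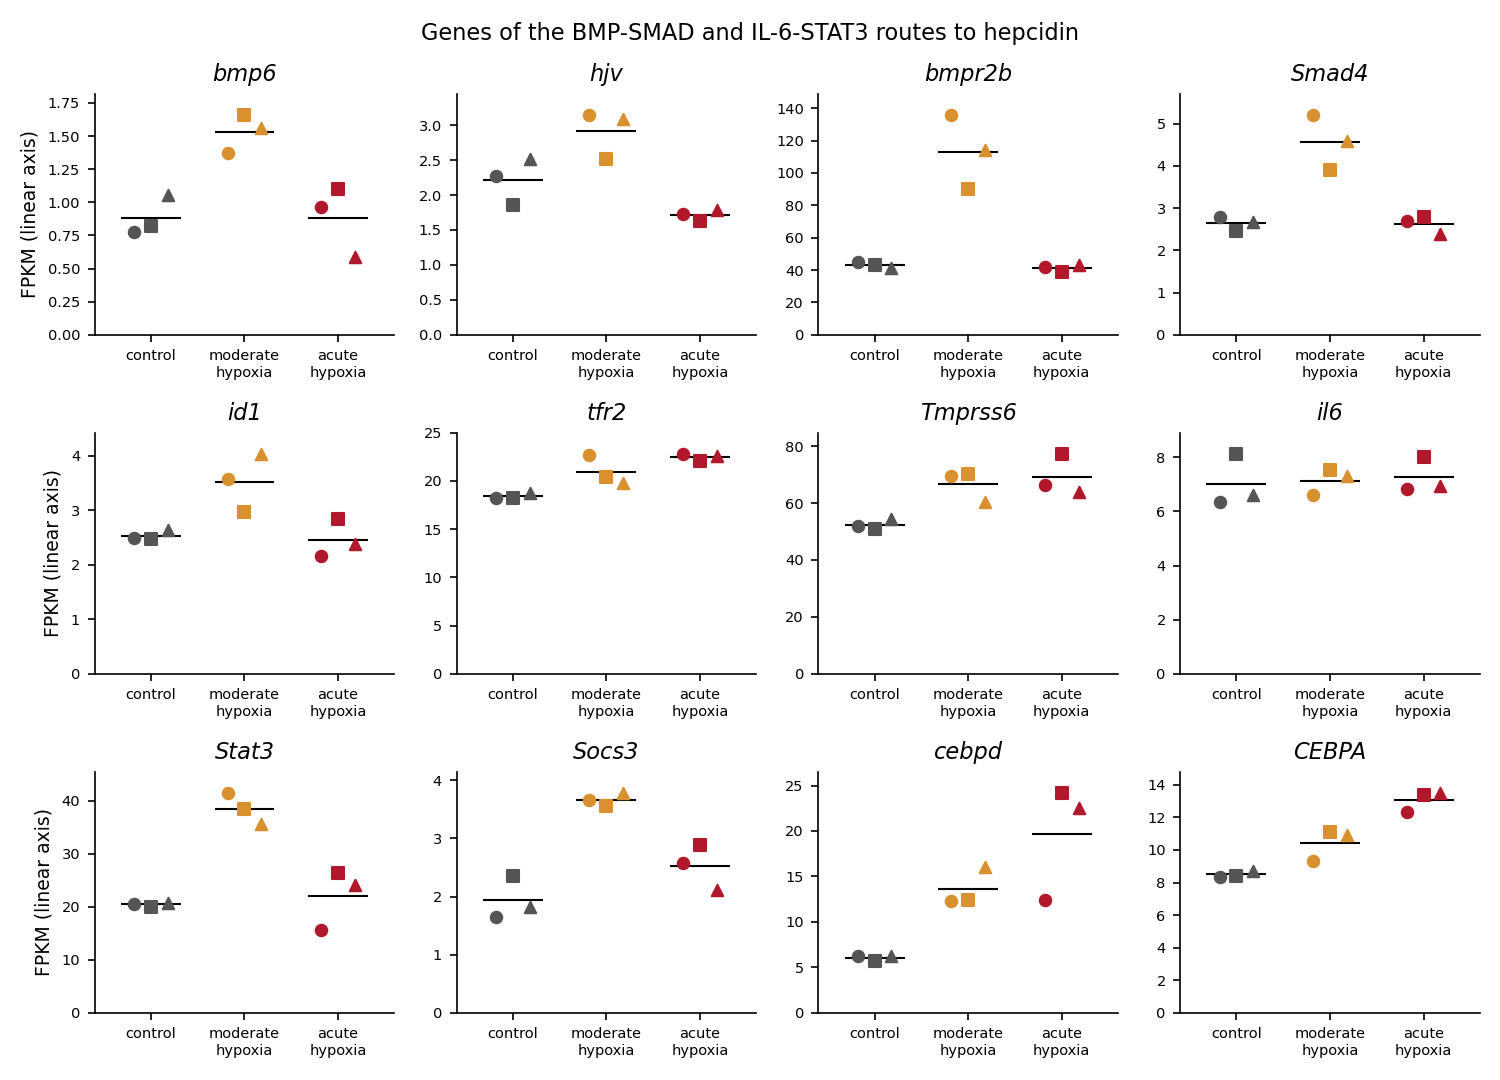
FPKM of 12 genes of the BMP-SMAD and interleukin 6 routes in each library, on linear axes from 0, with circles, squares and triangles for replicates 1, 2 and 3 and lines for group means. bmpr2b, Smad4 and Stat3 stand apart in moderate hypoxia, il6 stays near 7 FPKM in every group, and cebpd is higher in both hypoxia groups than in control.

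Genes that carry or hold iron passed the test in moderate hypoxia against control at a share near that of all genes. Of 39 tested, 11 rose and 2 fell there (5 and 4 with median-of-ratios scaling), 33.3% beside 29.3% of all genes. In acute hypoxia 2 rose and 3 fell against control (4 and 3), 12.8% beside 7.79%, and 2 rose and 8 fell against moderate hypoxia (8 and 4), 25.6% beside 32.4%. The 13 calls in moderate hypoxia became 7 without control library 1 or 3 and 8 without moderate library 1, and the 5 in acute hypoxia against control became 10 without acute library 3. Ferroportin (slc40a1), the target of hepcidin, did not pass against control for either copy. Copy ncbi_110520018 was called lower in acute than in moderate hypoxia. That call was lost under median-of-ratios scaling (limma adjusted p = 0.0664) and quantile normalization (limma adjusted p = 0.0596). The abundant copy (ncbi_110501553) was at 25.3 ± 9.71, 23.9 ± 5.13 and 22.5 ± 2.74 FPKM (SD, n = 3; limma adjusted p = 0.938 in moderate and 0.849 in acute hypoxia). A ferritin heavy chain gene (FTH, ncbi_100136294) was at 68.5 ± 3.72 FPKM in control, 128 ± 3.89 in moderate and 75.6 ± 18.7 in acute hypoxia, a rise of 0.74 relative to the median in moderate hypoxia (limma adjusted p = 0.00204). The metalloreductase gene STEAP4 (ncbi_100136336) was at 76.9, 92.4 and 65.1 FPKM in control, 142, 134 and 111 in moderate hypoxia and 20.1, 27.6 and 40.7 in acute hypoxia, 3 groups without overlap. It fell by 1.44 ± 0.22 (SE) in acute hypoxia against control (limma adjusted p = 0.003; 0.0665 without the filter on low values). The ferritin receptor of ferritin-degrading autophagy, ncoa4 (ncbi_110527319), rose in both hypoxia groups, from 6.04 to 9.88 and 11.5 FPKM (limma adjusted p = 0.00149 and 0.000719).

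Erythropoietin (epo, ncbi_110531655), which drives the formation of red cells, was stepwise higher, at 0.379 ± 0.0220 FPKM in control, 1.31 ± 0.140 in moderate and 3.12 ± 0.492 in acute hypoxia (SD, n = 3). It rose by 0.88 relative to the median in moderate hypoxia (limma adjusted p = 0.000424) and by 2.03 ± 0.13 (SE) in acute hypoxia (limma adjusted p = 9.72e-06). Its control mean was under the filter of 1 FPKM, so epo was fitted only through its values in hypoxia. These limma p-values therefore carry little weight beside the levels themselves. Of 22 tested genes of the hypoxia-inducible factor and erythropoietin list, 6 rose and 0 fell in moderate and 7 rose and 0 fell in acute hypoxia against control, and 7 rose and 4 fell from moderate to acute hypoxia (7 and 1 with median-of-ratios scaling). Both counts of genes higher than in control include epo. The share called was 27.3% in moderate hypoxia, near the 29.3% of all genes, and 31.8% in acute hypoxia, where 7.79% of all genes were called. From moderate to acute hypoxia it was 50.0% beside 32.4%. None of the 6 matched genes of the ghrelin receptor axis on which LEAP-2 acts in mammals was fitted. Ghrelin (ghrl) and its acyltransferase (mboat4) were listed at 0 in all 9 libraries, and the receptor genes were at most 0.572 FPKM.

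Of 17 tested genes of other secreted antimicrobial proteins, 0 passed in acute hypoxia against control by limma (4 were lower and 0 higher at an unadjusted p under 0.05), 0 rose and 2 fell in moderate hypoxia against control (0 and 4 with median-of-ratios scaling), and 2 rose and 3 fell from moderate to acute hypoxia (3 and 1). The shares called were 0.0%, 11.8% and 29.4%, beside 7.79%, 29.3% and 32.4% of all genes. Leaving out single libraries gave between 0 and 2 calls in acute hypoxia against control, 1 without control library 3 or acute library 1 and 2 without acute library 3. It gave 0 to 3 in moderate hypoxia against control, with 1 without control library 1 or 3 or moderate library 1 and 0 without moderate library 2. From moderate to acute hypoxia it gave 1 call without moderate library 1 or 2 or acute library 1 or 2. The lectin gene itln (ncbi_110532177) was at 6.65, 11.0 and 1.92 FPKM in control, 14.9, 12.9 and 15.2 in moderate hypoxia and 0.955, 1.18 and 2.87 in acute hypoxia. It fell by 2.67 relative to the median from moderate to acute hypoxia (limma adjusted p = 0.00148). The 3 genes that fell there were all copies of itln. Copies ncbi_118939526 and ncbi_118939527 had the same fit, with a difference of -0.75 before the median was subtracted, so they may be 1 signal listed under separate names. Their calls were lost with median-of-ratios scaling (limma adjusted p = 0.178) and quantile normalization (0.136). They were also lost without the filter, with the 2 compared groups alone, and without moderate library 1 or 2 or acute library 1 or 2. Lysozyme II (lyz2, ncbi_100136768) was lower in moderate hypoxia than in control, at 1360 against 2130 FPKM (limma adjusted p = 0.0233, lost under 7 of 15 alternatives, among them without control library 1 or 3 or any 1 moderate library). Defensin beta 3 (defb3, ncbi_100499616) was at 136 to 183 FPKM in all 9 libraries and was called only from moderate to acute hypoxia (limma adjusted p = 0.0485, lost under 8 of 15, among them without moderate library 1 or 2 or any 1 acute library).

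Among acute phase proteins, plasma proteins that inflammation sets in the liver, more fell than rose in moderate hypoxia. Of 49 tested, 3 rose and 12 fell against control (1 and 24 with median-of-ratios scaling), with a median of -0.20 beside 0.15 over all genes. Of all genes 24.3% rose and 5.02% fell there. In acute hypoxia 1 rose and 1 fell against control, 4.08% beside 7.79% of all genes. Against moderate hypoxia 18 rose and 3 fell (30 and 1), where 4.30% of all genes rose and 28.1% fell. The 15 calls in moderate hypoxia against control became 7 without control library 1 and 8 without moderate library 1, and the 21 from moderate to acute hypoxia became 13 without moderate library 1. The 2 in acute hypoxia against control became 0 without control library 1 or 3 or acute library 1 or 3, and 1 without control library 2. A complement C3 gene (c3, ncbi_110517348) was at 1121 ± 245 FPKM in control, 535 ± 57.5 in moderate and 1006 ± 183 in acute hypoxia (SD, n = 3), a change of -1.20 relative to the median in moderate hypoxia (limma adjusted p = 0.0016). The copies of c3 differed. A more abundant one (ncbi_110489027) was at 7141, 6125 and 7866 FPKM in control and 5818, 5880 and 4777 in moderate hypoxia. Its call there was lost under quantile normalization, with a difference of 0.15 (limma adjusted p = 0.312). It was also lost without control library 1 or 3 or moderate library 1 or 3 (limma adjusted p from 0.0573 to 0.123). The fits without the filter, without the mean trend and with a replicate block ended it too. Copy ncbi_110489018 was at 348, 344 and 342 FPKM in control and overlapped it in moderate hypoxia, at 396, 453 and 283. Haptoglobin (HP, ncbi_118936659), which binds free hemoglobin, was highest in moderate hypoxia, at 4077 ± 117, 4809 ± 333 and 3077 ± 427 FPKM, and fell from moderate to acute hypoxia (-0.45 relative to the median, limma adjusted p = 0.00116).

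Genes of NF-kappa-B and innate signalling were lower in acute than in moderate hypoxia, with 0 of 27 tested higher and 20 lower (1 and 18 with median-of-ratios scaling), beside 4.30% and 28.1% of all genes. Against control 11 rose and 1 fell in moderate hypoxia (8 and 1), and 0 rose and 6 fell in acute hypoxia (1 and 7), 44.4% and 22.2% of the list beside 29.3% and 7.79% of all genes. The 12 calls in moderate hypoxia against control became 7 without control library 1 or moderate library 1. Macrophage marker genes, 15 matched and 8 of them above 1 FPKM, summed to 40.1 to 50.1 FPKM in control, 33.7 to 43.4 in moderate and 28.9 to 38.1 in acute hypoxia. Control and acute sums did not overlap, as was so for 28.3% of single fitted genes. C1q genes made up most of the sum (c1qc 15.4, c1qb 11.5 and c1qa 5.30 FPKM in control library 1). Of these, c1qc and c1qb did not overlap between control and acute hypoxia, whereas c1qa did. The copies of marco differed. Copy ncbi_110501689 overlapped, but ncbi_110520391 did not, at 1.374, 1.025 and 1.162 FPKM in control and 0.514, 0.808 and 0.625 in acute hypoxia. A gene of the transcription factor PU.1 (ncbi_110506649) did not overlap either. Another PU.1 gene (ncbi_100136249) and a macrophage mannose receptor gene (ncbi_110508267) did. The part of macrophages in these values was not tested. The subunit gene Relb (ncbi_110507414) was at 9.43, 14.4 and 5.66 FPKM in control, 19.8, 9.97 and 15.7 in moderate hypoxia and 1.37, 1.02 and 0.593 in acute hypoxia. The acute libraries lay below all others, and control and moderate overlapped. Relb fell by 2.73 ± 0.32 (SE) in acute hypoxia against control (limma adjusted p = 0.000582).

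The genes whose log2(FPKM + 0.5) most resembled each fitted member over the 9 libraries were taken from 13128 named genes. The 9 points fall into 3 groups and share their scaling, and the correlations are a description only. For leap-2b they were phospho1, a phosphatase gene (r = 0.992), the secreted phospholipase gene pla2g3 (r = 0.990) and idi1, of isoprenoid synthesis (r = 0.982), and the most opposite was PNP, of purine breakdown (r = -0.990). For leap2 they were SMARCD3, of the SWI/SNF chromatin remodeller (r = 0.990), the tyrosine aminotransferase gene Tat (r = 0.982) and xdh, xanthine dehydrogenase (r = 0.980), and the most opposite was nop56, of ribosome assembly (r = -0.974). The correlation between leap-2b and leap2 was -0.826. For the abundant hepcidin gene they were pvrl2l (r = 0.974) and Rbm26 (r = 0.961), and for the other fitted one etf1 (r = 0.964) and ERH (r = 0.958). The r between these hepcidin genes was 0.55, and between the abundant hepcidin gene and leap-2b it was -0.017.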

How the data were processed

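The 9 liver RNA libraries were grouped by the treatment label. The values are FPKM per gene and library that the authors deposited, in 3 stacked tables, one for each pair of groups, beside log2 fold changes, p-values and FDR that the authors deposited for the same pair; the test behind these p-values is not stated and they were not used. Per the submitters' processing notes the tools included Bowtie2 2.2.8 and TopHat2 2.1.1; build, annotation and counter are not given in the sources used here. Moderate hypoxia values were the same in both tables that hold them (largest difference 0), so control and acute hypoxia were each read from the table they share with moderate hypoxia. The table that pairs control and acute hypoxia was an alternative, in which members at 1 FPKM or more had 1.005 to 1.007 times the values used. Read counts were not used here, so no counting interval is given.

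After a filter at a mean of 1 FPKM, limma 3.58.1 (R 4.3.3) was run on log2(FPKM + 0.5) (eBayes with mean trend, 3 groups in 1 fit, no covariate, two-sided), and a gene was called at an adjusted p (Benjamini-Hochberg, 13803 genes) under 0.05. The code was tested on simulated data. An adjusted p beside a change relative to the median belongs to the change before the median was subtracted. The members, the lists and the rule for named genes were chosen with earlier results of these data known. That rule took all members, up to 6 list genes with the smallest p per comparison, a fixed set of regulators of hepcidin, and the genes most and least correlated with each member; values are given for part of them. List genes were matched by symbol or product name. After seeing the matches and their mean levels, the SMAD names were narrowed and 6 wrong product names were taken out. RefSeq gene names (assembly USDA_OmykA_1.1) matched all 8 members.

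Results were recomputed with a pseudocount of 0.1 or 1, without the filter or with one of 5 FPKM, with quantile or median-of-ratios scaling, limma without the mean trend, the 2 compared groups alone, a replicate block, the other table and each library left out in turn.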

Additional observations from a re-analysis of the deposited data

How the results depend on the processing

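Of the 144 recomputed differences of the 4 fitted members, 138 stayed within 1 SD of the value reported. The SD was that of the gene itself on the log2 scale, pooled within the compared groups. This yardstick is wide for the variable hepcidin genes and narrow for leap2, so the count does not measure stability alike for all members. For the abundant hepcidin gene a change of sign from 0.68 to -0.43 in acute hypoxia against control counted as within 1 SD. The exceptions were leap-2b in moderate hypoxia against control, -0.89 with median-of-ratios scaling; leap2 in the same comparison, 0.61 with that scaling and 0.62 with quantile normalization, and in acute against moderate hypoxia, 0.50 and 0.49; and the hepcidin gene ncbi_100135935 in acute against moderate hypoxia, -2.08 with a pseudocount of 0.1. With single libraries left out, leap-2b ranged from -2.98 to -2.49 (acute against control), -0.81 to -0.61 (moderate against control) and -2.28 to -1.79 (acute against moderate), and leap2 from 0.98 to 1.14, 0.72 to 0.85 and 0.20 to 0.35. The abundant hepcidin gene ranged from -0.43 to 1.47, 1.39 to 3.30 and -2.48 to -1.34, and ncbi_100135935 from -1.89 to -0.56, -0.58 to 0.75 and -1.68 to -0.88. Over all genes, 1075 calls in acute hypoxia against control became 496 without the filter, 571 with a filter of 5 FPKM and 462 to 883 with single libraries left out (462 without control library 1, 588 without acute library 2, 662 without control library 2). The 4041 calls in moderate hypoxia became 1257 with the filter of 5 FPKM, where fewer genes are tested, and 2623 to 3510 with single libraries left out (2623 without control library 1). The 4477 calls in acute against moderate hypoxia became 1443 with that filter, 2943 with quantile normalization and 3004 to 3928 with single libraries left out. The lists together had 26 calls in acute hypoxia against control (13 without the filter, 19 to 31 with single libraries left out), 69 in moderate hypoxia (44 without the filter, 42 with the filter of 5 FPKM, 42 to 68 with single libraries left out) and 90 in acute against moderate hypoxia (49 with the filter of 5 FPKM, 61 to 79). Of 322 recomputed counts of single lists, 72 moved by over 1.5 times. Beyond the changes in genes tested or libraries used, the cause was not tested. Of the called genes, 39.5%, 82.9% and 13.2% were higher (in the order acute and moderate against control, then acute against moderate), and 51.5%, 51.6% and 49.8% with median-of-ratios scaling. Same-numbered libraries did not deviate together (correlations of -0.131 to 0.0806), so the replicate numbers were not taken as pairs; with a replicate block the counts were 794, 3557 and 3984, and for the lists together 24, 59 and 83.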

Other observations

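The order of the control libraries in the abundant hepcidin gene was also found in other genes, picked after their values were seen and not tested. How many of all genes have this order was not counted, so a pattern particular to these genes cannot be read from it. The gene leap-2b had it too (27.8, 25.2 and 21.0 FPKM in libraries 2, 1 and 3), and leap2 had the reverse (4.11, 4.81 and 4.93). Control library 2 was the highest and control library 3 the lowest for both fitted hepcidin genes, for itln (11.0, 6.65 and 1.92 FPKM in libraries 2, 1 and 3), for Relb (14.4, 9.43 and 5.66) and for the flagellin receptor gene tlr5 (ncbi_100135812; 25.3, 14.2 and 4.89). In the moderate libraries tlr5 was at 17.9, 17.1 and 14.1 FPKM, and in the acute libraries at 0.927, 3.67 and 6.81. A lysozyme gene annotated as lysozyme C II-like (lys, ncbi_118964557) had the reverse order in control, at 1756 FPKM in library 2, 3143 in library 1 and 4201 in library 3. Summed markers of exocrine pancreas, of which 13 of 31 were above 1 FPKM, ran from 4.34 to 67.1 FPKM in control, 10.6 to 107 in moderate and 27.0 to 92.7 in acute hypoxia. Their part in any of these values was not tested.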
